A study of Mus musculus with 34 samples.

Results

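The BCL2 family decides whether the outer membrane of the mitochondrion stays intact. This account covers 10 of its genes, chosen by symbol from 49686 genes in the zygote and late 2-cell tables and 51734 in the blastocyst table, and all 10 had a row at every stage. They were measured in single mouse embryos that had been injected as zygotes with mRNA for wild-type (WT) CHK1, a kinase of the DNA damage checkpoint, or for the mutant CHK1 R442Q. There were 5 WT and 6 R442Q zygotes and 4 WT and 5 R442Q late 2-cell embryos, which per the labels had no further treatment, and 7 WT and 7 R442Q blastocysts, all grown with a CHK1 inhibitor at 30 nM. Every embryo had therefore been injected with CHK1 mRNA as a zygote, and the WT groups are injected controls rather than uninjected embryos. No uninjected embryos and no blastocysts without inhibitor were analysed here. The labels name no mouse strain, and they do not say whether the embryos of a group came from separate litters. The p-values thus set a group difference against the spread between embryos of a group, and whether these embryos are independent is not known. Counts of Chek1, the injected gene, do not separate injected from endogenous mRNA. The Chek1 level was 6034 ± 2113 FPKM in WT zygotes (SD, n = 5) and 6321 ± 602 in R442Q zygotes (SD, n = 6). It was 431 ± 148 FPKM in WT (SD, n = 4) and 525 ± 285 in R442Q late 2-cell embryos (SD, n = 5). In blastocysts it was 21.0 ± 10.8 FPKM in WT and 18.3 ± 3.27 in R442Q (SD, n = 7 each). How much injected mRNA was left at the later stages was not tested.

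The family falls into 3 classes of protein. Survival proteins bind and hold back the others, and Bcl2, Bcl2l1 (BCL-XL), Bcl2l2 (BCL-W), Bcl2l10 and Mcl1 are placed in this class here. The classes were assigned by gene, and what the proteins do in these embryos was not measured. The survival share in zygotes rests on the placing of Bcl2l10. Effectors, here Bak1 and Bok, permeabilise the membrane and release cytochrome c, which then activates caspases through APAF1. BH3-only proteins, here Bad, Bid and Bcl2l11 (BIM), relay stress by occupying the survival proteins or by activating the effectors. In the egg and early embryo Bcl2l10 is known as an abundant maternal transcript, and MCL1 is known to be needed by the embryo around implantation. The zygote runs on mRNA stored in the egg, and most of that mRNA is cleared as the embryo's own genome switches on around the 2-cell stage.

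Zygote libraries held 7183632 to 11296522 counts and late 2-cell libraries 5727956 to 8916343. The blastocysts had only FPKM (fragments scaled to transcript length and library size), and their relative depth, read from the steps between low values, ranged from 0.875 to 1.11 of their mean. The FPKM of all genes summed to 733250 ± 14091 in WT (SD, n = 4) and 893448 ± 62796 in R442Q late 2-cell embryos (SD, n = 5), without overlap. Blastocyst R442Q replicate 7 stood apart, with a median rank correlation of 0.725 to the other blastocysts, where the others had 0.805 to 0.889. All 7 egg and zygote markers had a mean of at least 1 FPKM in both zygote groups. The reverse transcription of SMART-seq2 starts on poly(A) tails, so a change in amount and a change in tail length cannot be told apart. In whole blastocysts, fewer cells of a type and less RNA per cell cannot be told apart either.

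Promoters of 3 members are shown because their transcripts differed most between the genotypes at the late 2-cell stage (smallest p among the members tested). Each is the 250 bases upstream of the RefSeq start site nearest the gene's annotated 5′ end, on GRCm38.p6, on the gene's own strand and 5′ to 3′. Which start site these embryos used was not tested. Capitals mark matches, on either strand, to the GC box GGGCGG, the CCAAT box CCAAT or the forkhead motif TGTTTAC.
Bcl2l1 (chr2:152831729-152831978, minus strand): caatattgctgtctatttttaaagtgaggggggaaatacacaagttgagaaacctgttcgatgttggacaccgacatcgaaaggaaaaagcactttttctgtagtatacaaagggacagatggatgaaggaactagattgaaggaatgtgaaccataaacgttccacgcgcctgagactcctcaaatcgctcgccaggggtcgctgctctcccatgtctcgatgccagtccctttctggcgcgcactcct
Bcl2l11 (chr2:128125788-128126037, plus strand): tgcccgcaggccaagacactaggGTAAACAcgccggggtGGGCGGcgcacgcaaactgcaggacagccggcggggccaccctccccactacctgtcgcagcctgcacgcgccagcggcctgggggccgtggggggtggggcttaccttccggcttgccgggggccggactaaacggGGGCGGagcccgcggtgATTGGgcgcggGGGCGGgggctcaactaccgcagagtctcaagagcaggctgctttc
Bad (chr19:6941611-6941860, plus strand): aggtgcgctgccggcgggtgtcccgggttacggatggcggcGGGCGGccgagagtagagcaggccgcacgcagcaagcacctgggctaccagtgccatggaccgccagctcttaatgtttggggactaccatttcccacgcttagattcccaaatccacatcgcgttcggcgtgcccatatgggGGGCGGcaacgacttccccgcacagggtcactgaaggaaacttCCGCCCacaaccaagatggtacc
The Bcl2l11 window held 3 GC boxes, 1 CCAAT box and 1 forkhead match, and the Bad window held 3 GC boxes. The Bcl2l1 window held none of the motifs. The GC content was 72.0% for Bcl2l11, 62.8% for Bad and 47.6% for Bcl2l1. Of the 9 members with a promoter in the table, 7 held a GC box, against 33% of 32536 promoters, and 1 held the forkhead motif, against 3.17%. The TATA box (TATAAA) and the E-box (CACGTG) were found in 0 of the 9, against 12.3% and 6.04% of all promoters, and the CCAAT box in 1 of the 9, against 33.8%. A match is only a run of letters in this window.

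In zygotes almost all of the FPKM of the 10 genes was Bcl2l10. Its mean over 11 zygotes was 5606 ± 514 FPKM (SD), which placed it at number 12 among all genes, and it made up 97.9% ± 0.47 of the summed FPKM of the 10 genes in WT (SD, n = 5) and 97.4% ± 0.43 in R442Q (SD, n = 6). Bcl2l1 came next at 128 ± 25.2 FPKM and Bcl2l11 next at 6.42 ± 2.32 FPKM (SD, n = 11), and this order held in all 11 zygotes. The other 7 members had means from 0.021 FPKM (Bak1) to 1.19 FPKM (Bad), and neighbours among them changed places from embryo to embryo. The survival class held 99.9% ± 0.026 of the FPKM of the 10 genes in WT (SD, n = 5), and nearly all of that was Bcl2l10.

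The members lie on 8 chromosomes of GRCm38. Bcl2l10 (ENSMUSG00000032191.5) is on chromosome 9 from 75347758 to 75351632, Mcl1 on chromosome 3 from 95658788 to 95663176 and Bok on chromosome 1 from 93685660 to 93695764, none overlapped by another annotated gene. Bad on chromosome 19 (6941861 to 6951899) overlaps Gpr137 on the opposite strand and shares 17.2% of its 50-base stretches with it. Bak1 on chromosome 17 (27019810 to 27029009) likewise shares 17.1% with Ggnbp1. Bid lies on chromosome 6 (120891930 to 120916853), Bcl2l2 on chromosome 14 (54883377 to 54888234) and Bcl2 on chromosome 1 (106538178 to 106714274).

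**Figure D1:**
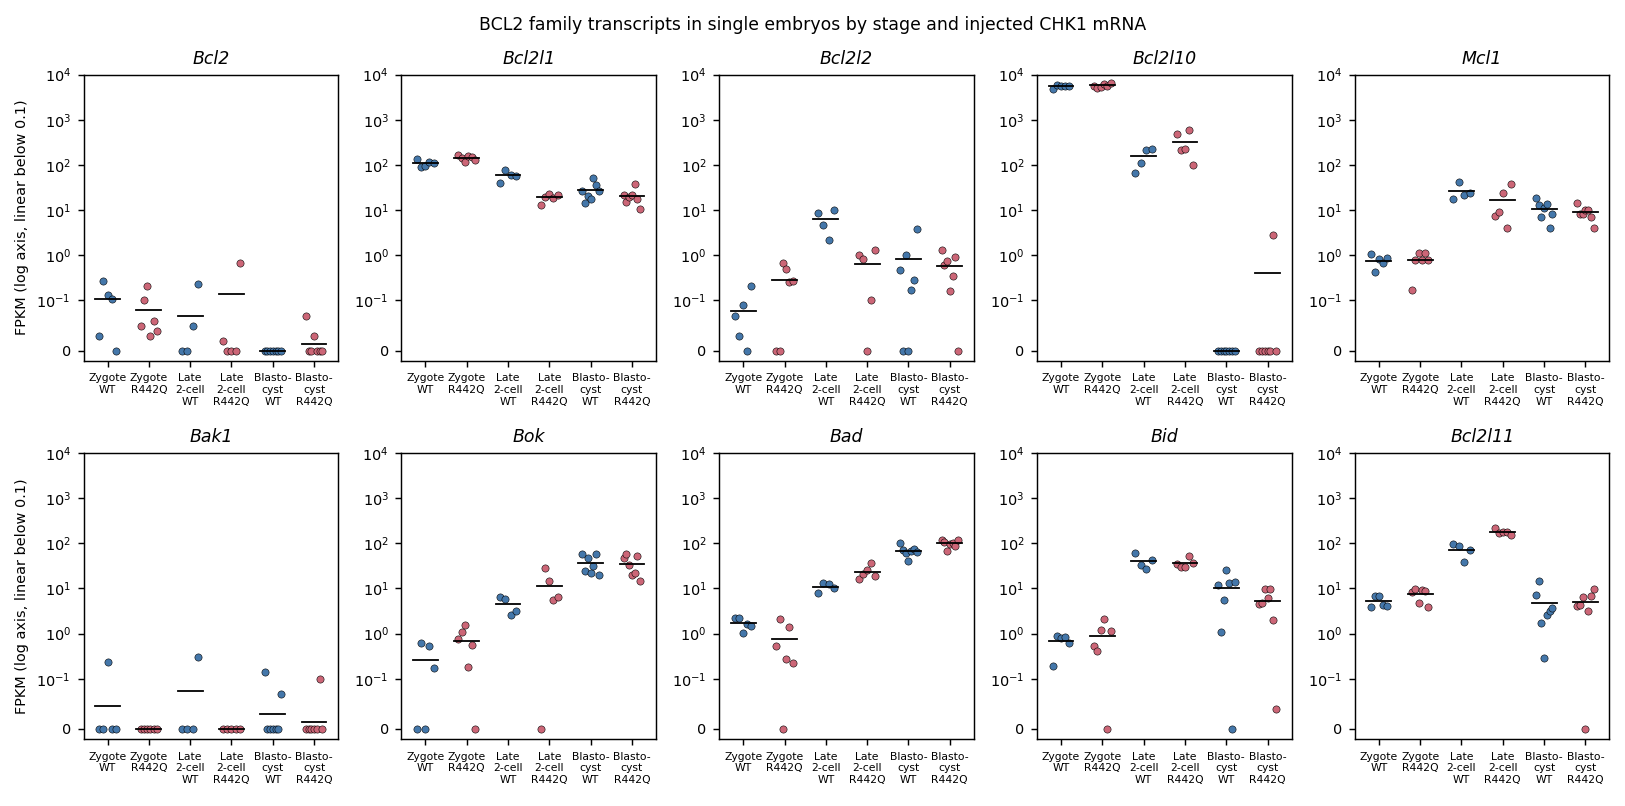
FPKM of each member in every embryo (points; log axis, linear below 0.1), by stage and injected mRNA, with the group mean as a line; blue is WT and red is R442Q, and all blastocysts had the inhibitor. Bcl2l10 has a mean of 5606 in zygotes and is at 0 in 13 of 14 blastocysts, and Bad has means of 1.19 and 83.9. The tables of the stages were normalised separately, so heights across stages are set side by side only.

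By the late 2-cell stage the mixture was broad. Mean FPKM over 9 embryos was 249 ± 178 for Bcl2l10, 131 ± 60.8 for Bcl2l11, 38.6 ± 11.2 for Bid and 36.8 ± 23.5 for Bcl2l1 (SD). Mcl1 followed at 20.7 ± 13.0 and Bad at 17.9 ± 8.79 FPKM, then Bok at 8.12 ± 8.70 and Bcl2l2 at 3.21 ± 3.77 FPKM (SD, n = 9). Bcl2l11 lay above Bid in 9 of 9 embryos, and Bcl2l10 above Bcl2l11 in 7 of 9. The order below them was mixed, and whether it differs by genotype was not tested. Bcl2l1 had a mean of 59.0 ± 16.4 FPKM in WT (SD, n = 4) and 19.1 ± 3.75 in R442Q (SD, n = 5), where Bid had 40.7 ± 14.5 and 36.9 ± 9.26. Bid lay above Bcl2l1 in 1 of 4 WT and 5 of 5 R442Q embryos. Mcl1 lay above Bad in 4 of 4 WT and 1 of 5 R442Q embryos, and Bcl2l1 above Mcl1 in 4 of 4 and 3 of 5. Bcl2 and Bak1 had means of 0.107 and 0.033 FPKM, at or near 0.

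In blastocysts, all of which had the inhibitor, the BH3-only gene Bad and the effector Bok had the highest means of the 10 genes. Bad stood first at 83.9 ± 23.9 FPKM (SD, n = 14), above Bok in every embryo, and Bok stood second at 36.0 ± 16.3 and above Bcl2l1 in 10 of 14. Bcl2l1 followed at 23.9 ± 10.8, Mcl1 at 9.81 ± 4.07, Bid at 7.72 ± 7.0 and Bcl2l11 at 4.85 ± 3.93 FPKM (SD, n = 14). Bcl2l10 was listed at 0 in 13 of 14 blastocysts and at 2.88 FPKM in R442Q replicate 6. Of the FPKM of the 10 genes, the survival class had a mean share of 24.4% ± 5.92 in the WT group and 17.4% ± 5.66 in the R442Q group (SD, 7 embryos in each). Bax, the other main effector, was not a member, is not in these shares and was added after its values were seen. Its blastocyst level was 183 ± 41.0 FPKM for WT and 207 ± 79.6 for R442Q (SD, 7 embryos in each), beside 15.1 ± 7.39 in WT (SD, n = 4) and 26.3 ± 4.61 in R442Q late 2-cell embryos (SD, n = 5). Bax alone thus had a higher blastocyst mean than the BH3-only members together. They summed to 83.2 ± 17.3 FPKM in WT and 110 ± 17.3 in R442Q (SD, 7 embryos in each). The class shares hold for the 10 genes only.

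**Figure D2:**
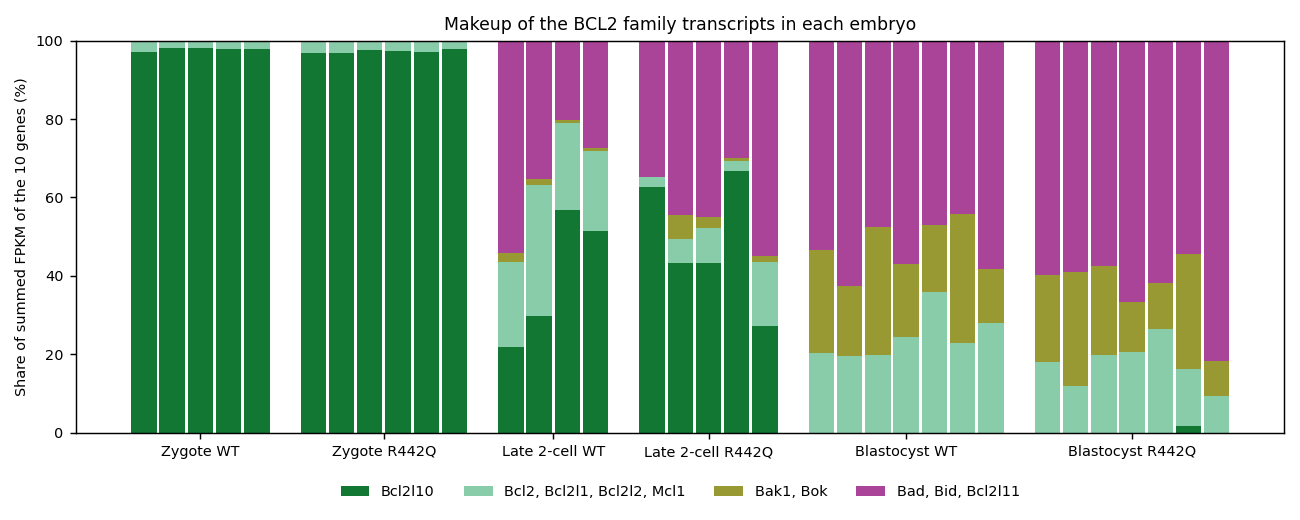
Share of the summed FPKM of the 10 genes held by Bcl2l10, by the other survival genes, by the effectors and by the BH3-only genes; each bar is 1 embryo and bars of a group stand together. Among these 10 genes the bars pass from almost only Bcl2l10 in zygotes to mostly BH3-only genes in blastocysts (52.8% in WT and 63.0% in R442Q). The effector Bax and the BH3-only gene Bik are outside the 10 genes and not in the bars.

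Across the first cleavage most members rose and the 2 most abundant fell. In WT embryos 6 of the 9 members that passed the filter on low counts rose from zygote to late 2-cell and 2 fell (edgeR's quasi-likelihood test, Benjamini-Hochberg adjusted p under 0.05), where 61.2% of 16199 genes were called, 36.2% higher and 25.0% lower. The share called among the members is thus to be read against a background in which most genes changed. In R442Q embryos 5 rose and 2 fell, with 65.1% of genes called, 35.3% higher and 29.8% lower. Bcl2l2 and Bok did not pass the filter in zygotes alone and entered through the late 2-cell embryos, where they are high, so their part in these counts supports nothing. Counts are relative to the library, so these are changes in share of the measured mRNA, and stage and table cannot be told apart. The median change over all genes was a log2 of 0.34 in WT and 0.22 in R442Q, and both were 0 with DESeq2.

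Bcl2l10 and Bcl2l1, both placed in the survival class, fell. Bcl2l10 stood at 4882, 5959, 6012, 5743 and 5969 CPM (counts scaled to the library total) in WT zygote replicates 1 to 5 and at 71.0, 120.1, 235 and 247 CPM in WT late 2-cell replicates 1 to 4. The stages did not overlap. The fall was 35.5-fold in WT (log2 -5.15 ± 0.38 SE, edgeR adjusted p 2.7e-09) and 20.1-fold in R442Q (log2 -4.33 ± 0.34 SE, edgeR adjusted p 2.6e-09). Bcl2l1 behaved differently in size, with a fall of log2 -0.94 ± 0.22 in WT (SE, edgeR adjusted p 7.8e-04) and of -3.17 ± 0.20 in R442Q (SE, edgeR adjusted p 1.9e-11).

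The 3 BH3-only members rose in both genotypes. Bid, which is cleaved to carry death receptor signals to the mitochondrion, rose by a log2 of 5.65 ± 0.49 in WT and 5.73 ± 0.45 in R442Q (SE). Bcl2l11, a BH3-only gene whose protein binds many of the survival proteins, rose by 2.61 ± 0.30 and 3.05 ± 0.27 (SE). Bad, which is held inactive by phosphorylation and binding to 14-3-3 proteins, rose by 2.57 ± 0.67 and 4.23 ± 0.62 (SE). Among the rest, Mcl1 rose by 4.11 ± 0.47 in WT and 3.59 ± 0.42 in R442Q, and the effector Bok by 4.35 ± 1.15 and 3.61 ± 0.96 (log2, SE). Bcl2l2 rose by 4.86 ± 1.22 in WT (SE, edgeR adjusted p 0.00204), and had 1.57 ± 1.05 in R442Q, which was not called (adjusted p 0.181). Bcl2 was not called in either genotype, and Bak1 did not pass the filter.

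**Figure D3:**
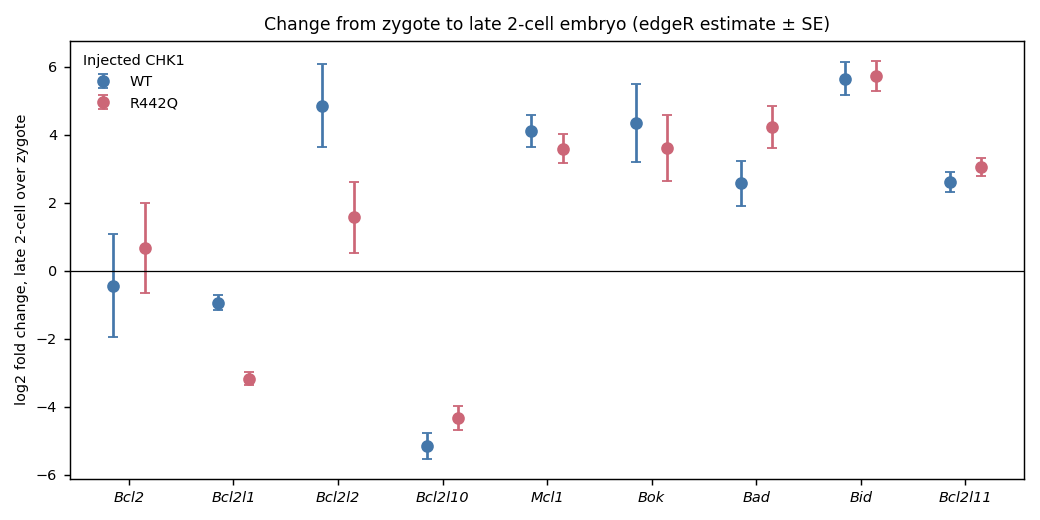
log2 fold change from zygote to late 2-cell embryo (points) with its standard error (bars) for the 9 members that were tested, WT in blue and R442Q in red, from edgeR on counts. Bcl2l1 and Bcl2l10 lie below 0 in both genotypes, and Bcl2l1 is the member whose points are furthest apart relative to their errors (-0.94 and -3.17).

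The change across cleavage differed between genotypes for 1 of 9 members, Bcl2l1. The interaction was a log2 of -2.23 ± 0.29 (SE, edgeR adjusted p 6.1e-05), where 10.1% of 16199 genes were called 3.07% higher and 7.05% lower. It stayed called in each of 20 fits that left out 1 embryo, with values between -2.31 and -1.90. RLE size factors moved the median interaction of all genes from -0.16 to -0.01, and over the alternatives Bcl2l1 lay between -2.29 and -2.07. Bcl2l2 had the larger estimate of -3.29 ± 1.61 (SE) but an adjusted p of 0.195. The 7 others lay between -0.75 and 1.65.

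Bcl2l1 was also the one member that was called within each early stage, in opposite directions. Its CPM in zygotes was 292, 199.8, 194, 247 and 248 in WT replicates 1 to 5 and ran from 252 through a median of 312 to 362 in R442Q. The groups overlapped, with the 4 lowest values all in WT. R442Q was 1.41-fold higher (log2 0.50 ± 0.14 SE, edgeR adjusted p 0.0267), 1 of 6 members tested, where 13.2% of 12420 genes were called, 6.30% higher and 6.92% lower. The call ended without R442Q replicate 1 (adjusted p 0.0645), WT replicate 2 (0.0765) or WT replicate 3 (0.0691), each with a log2 difference of 0.43. It also ended with both stages fitted together (log2 0.53, adjusted p 0.209) and with limma on rescaled FPKM (0.39, adjusted p 0.0549). Bcl2l11 differed by a log2 of 0.48 ± 0.27 in zygotes (SE, edgeR adjusted p 0.263), and was called without R442Q replicate 3 (0.65, adjusted p 0.0454). The 7 egg and zygote markers summed to 5700 to 7747 FPKM in WT zygotes and 3770 to 5586 in R442Q, without overlap, and 2 of them were called lower in R442Q, the zona pellucida gene Zp3 (log2 -1.35, edgeR adjusted p 2.0e-04) and Ooep (-0.82, edgeR adjusted p 7.3e-04). The 6 late 2-cell activation markers with a row summed to 75.8 to 102 FPKM in WT and 70.5 to 171 in R442Q zygotes. Of them 4 were called higher in R442Q, with Zscan4c at a log2 of 3.52 (edgeR adjusted p 0.00532). Dppa2, the most abundant, with medians of 91.7 FPKM in WT and 62.7 in R442Q, was not called (log2 -0.25). The trophectoderm marker Krt18 (2.99, edgeR adjusted p 0.00334) and the primitive endoderm marker Pdgfra (2.09, edgeR adjusted p 0.0172) were also called higher. The other tested markers of those lists were not called. They were Krt8 (log2 0.93), Gata3 (0.15) and Tfap2c (-0.01) for trophectoderm, and Gata4 (0.21) and Sox17 (1.83) for primitive endoderm. The part of these markers in the Bcl2l1 difference was not tested.

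At the late 2-cell stage Bcl2l1 had 88.2, 170.0, 137 and 119 CPM in WT replicates 1 to 4 and 29.9, 45.7, 35.3, 38.7 and 44.9 CPM in R442Q replicates 1 to 5. Every WT embryo lay above every R442Q embryo. R442Q was 3.12-fold lower (log2 -1.64 ± 0.30 SE, edgeR adjusted p 0.0131), 1 of 8 members tested, where 4.18% of 13883 genes were called, 1.22% higher and 2.95% lower. The call ended without WT replicate 2 (log2 -1.47, adjusted p 0.0553). It also ended when a trend of the differences with gene length and GC content was removed, an adjustment chosen after seeing the data (-1.21, adjusted p 0.0774). No other annotated gene overlaps Bcl2l1 (ENSMUSG00000007659.18; GRCm38 chromosome 2, 152780668 to 152831728).

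Bcl2l11 went the other way at this stage. It had 105.8, 103.9, 45.4 and 81.6 CPM in WT and 186, 139.5, 169.9, 173 and 126 CPM in R442Q, without overlap. The estimate was 2.02-fold higher in R442Q (log2 1.02 ± 0.31 SE), and it was not called in the main test (edgeR adjusted p 0.0831). It was called with DESeq2 (adjusted p 0.0256), with both stages fitted together (0.0328), and with limma on deposited FPKM (0.0275) or rescaled FPKM (0.0496), and its adjusted p over all alternatives without leaving out embryos ranged from 0.0256 to 0.158. The gene (ENSMUSG00000027381.16; GRCm38 chromosome 2, 128126038 to 128162547) overlaps no other annotated gene.

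Bad and Bcl2l2 also separated the genotypes at this stage without passing the test. Bad had 6.31, 10.6, 11.6 and 10.2 CPM in WT and 13.1, 16.9, 21.1, 23.1 and 17.3 in R442Q. Its log2 difference was 0.99 ± 0.44 (SE, edgeR adjusted p 0.225). Bcl2l2, which had few counts, had 8.17, 3.77, 3.91 and 6.96 CPM in WT and 0.611, 2.89, 0, 0.34 and 2.93 in R442Q, a log2 difference of -1.90 ± 1.11 (SE, edgeR adjusted p 0.355). It was called with limma on deposited FPKM (log2 -2.09, adjusted p 0.035) and on rescaled FPKM (-2.41, adjusted p 0.0225). With Bcl2l1 and Bcl2l11 that made 4 of 8 tested members whose groups did not overlap in CPM, where 12.4% of 13883 genes did not. Bcl2l2 passed the filter through the WT embryos, where it is high, so its part in that count supports nothing. In zygotes 0 of 6 tested members were free of overlap, beside 9.39% of genes. Gm20521, on the same strand as Bcl2l2, holds 12.1% of its 50-base stretches and had 16.0 ± 5.70 FPKM in WT and 3.8 ± 2.28 in R442Q (SD, n = 4 and 5), so reads of the pair cannot be told apart in full.

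**Figure D4:**
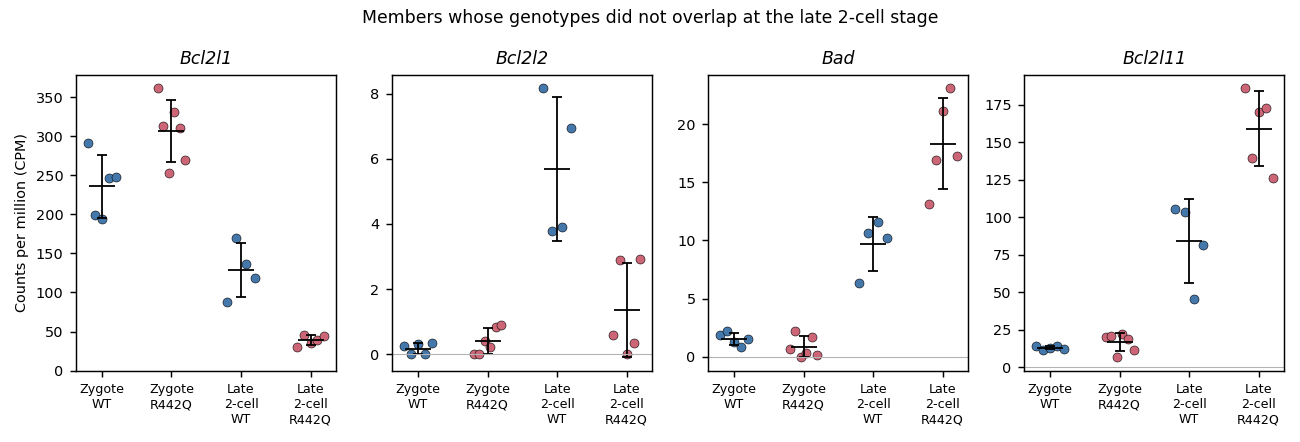
CPM of the 4 members whose genotypes did not overlap at the late 2-cell stage, in every zygote and late 2-cell embryo (points), with mean and SD (bars); blue is WT and red is R442Q, and each panel has its own axis. Bcl2l1 and Bcl2l2 lie lower and Bad and Bcl2l11 higher in late 2-cell R442Q embryos, and of these Bcl2l1 was called by the test (adjusted p 0.0131).

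Bcl2l10, the most abundant member, varied widely between late 2-cell embryos. It had 71.0, 120.1, 235 and 247 CPM in WT and 515, 222, 226, 618 and 107 in R442Q, with overlap, and a log2 difference of 1.10 ± 0.51 (SE, edgeR adjusted p 0.247). The summed FPKM of the 7 egg and zygote markers lay between 1233 and 3165 in WT and between 1706 and 7038 in R442Q late 2-cell embryos. Most of these sums was Oosp1, at 945.5 to 2569 FPKM in WT and 1347 to 6564 in R442Q. Of the 7 markers only Ooep was called, higher in R442Q (log2 2.29, edgeR adjusted p 0.00649). The others lay between a log2 of -0.53 (Gdf9) and 1.28 (Oosp1). The part of the egg and zygote markers in the Bcl2l10 values was not tested. The late 2-cell activation markers summed to 390 to 798 FPKM in WT and 727 to 1119 in R442Q, and their part in the Bcl2l11 and Bad values was not tested. The 10 cumulus and granulosa cell markers summed to 45.2 to 71.7 FPKM in WT and 18.0 to 74.1 in R442Q late 2-cell embryos. Most of that was Amhr2, a receptor gene, with medians of 59.5 and 22.5, while Has2, Ptx3 and Foxl2 had medians of 0 in both groups. Tnfaip6 went the other way, with medians of 1.46 in WT and 4.35 in R442Q. Their part in the Bcl2l1 values was not tested.

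The other members had no genotype difference past the test at any stage. Mcl1 differed by a log2 of 0.13 ± 0.45 in zygotes and -0.29 ± 0.45 in late 2-cell embryos (SE). Its late 2-cell CPM was 37.0, 70.3, 34.7 and 37.9 in WT and 21.4, 31.1, 44.7, 13.6 and 64.2 in R442Q, so the groups overlapped. Bid differed by -0.25 ± 0.65 and -0.08 ± 0.31 (SE). Its late 2-cell CPM was 124, 69.2, 54.5 and 81.1 in WT and 74.6, 61.5, 58.7, 86.3 and 77.8 in R442Q, with overlap. Bok, which can act without Bax and Bak1, had 8.57, 7.26, 3.55 and 3.57 CPM in WT late 2-cell embryos and 0, 23.4, 11.7, 5.86 and 6.84 in R442Q. The R442Q embryos were thus the more spread, and the log2 difference was 0.80 ± 0.96 (SE, edgeR adjusted p 0.691). Bcl2, the founding survival gene, reached at most 1.49 CPM in any zygote and 4.82 CPM in any late 2-cell embryo, and did not pass the filter within either stage. Bak1 was at 0 in 10 of 11 zygotes and 8 of 9 late 2-cell embryos, where a count of 0 allows up to 3 counts, or 0.266 to 0.524 CPM over these libraries (counting error only). Bid shares 16.4% of its 50-base stretches with Bcl2l13 on the opposite strand, and the use of strand in counting is not given in the sources used here.

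In blastocysts 0 of 6 tested members were called by limma, with 1 at an unadjusted p under 0.05, where 0.00885% of 11297 genes were called and 7.4% had such an unadjusted p. Bad had 40.9 at the lowest, 68.0 at the median and 99.5 FPKM at the highest in WT, and 66.5, 102 and 120.4 in R442Q (n = 7 each). The groups overlapped, and the log2 difference was 0.55 ± 0.21 (SE, unadjusted limma p 0.0161, adjusted 0.467). It lay between 0.44 and 0.65 when any 1 embryo was left out, replicate 7 of R442Q included. Bcl2l1 ran from 14.1 through 25.9 to 50.2 FPKM in WT and from 10.7 through 19.4 to 38.6 in R442Q, a log2 difference of -0.37 ± 0.32 (SE, limma adjusted p 0.855). None of the 6 was free of overlap between the groups, beside 0.416% of genes.

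The wider pathway was read from 5 lists of 53 genes. Between genotypes edgeR called 2 of 38 tested list genes in zygotes (5.26%, beside 13.2% of all genes), 1 of 40 at the late 2-cell stage (2.5%, beside 4.18%) and 2 of 45 in the interaction (4.44%, beside 10.1%). In zygotes 1 of 11 tested apoptosome, caspase and mitochondrial genes rose, Apaf1 (log2 1.2 ± 0.26 SE, edgeR adjusted p 0.00679), the scaffold of the apoptosome, and 1 of 5 inhibitor of apoptosis genes fell, Birc6 (-1.06 ± 0.18 SE, edgeR adjusted p 0.00126), a large ubiquitin ligase. The medians of those lists were 0.34 and 0.07, beside 0.01 for all genes. At the late 2-cell stage 1 of 9 other family genes fell, Bcl2l13 (-1.89 ± 0.31 SE, edgeR adjusted p 0.00959), a mitophagy receptor of the outer membrane, and 0 of the 31 tested genes of the other 4 lists were called by edgeR. The interaction called Bcl2l13 (-2.15 ± 0.32 SE, edgeR adjusted p 2.9e-04) and Apaf1 (-2.12 ± 0.48 SE, edgeR adjusted p 0.00724).

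From zygote to late 2-cell edgeR called 30 of 45 tested list genes in WT embryos (66.7%, beside 61.2% of all genes) and 31 of 45 in R442Q (68.9%, beside 65.1%), so the share was near that of all genes. Of 13 genes of the apoptosome list 8 rose and 1 fell in WT, and 8 rose and 2 fell in R442Q, with medians of 1.55 and 1.05, beside 0.34 and 0.22 for all genes. Endog and Dffb did not pass the filter in zygotes alone, and Casp8, which fell, did not in late 2-cell embryos alone. Each entered through the stage where it is high, so their part in these counts and medians supports nothing. Of 10 other family genes 6 rose and 1 fell in WT, and 5 rose and 1 fell in R442Q. Bcl2l14, Pmaip1 and Bmf, which are among those that rose, did not pass the filter in zygotes alone. They entered through the late 2-cell embryos, where they are high, so their part in these counts supports nothing. The estimate for Bcl2l14 was a log2 of 7.92 ± 0.94 in WT and 6.02 ± 0.63 in R442Q (SE). Bcl2l13 rose by 2.26 ± 0.24 in WT (SE) and had 0.11 ± 0.22 in R442Q, which was not called (SE, edgeR adjusted p 0.662). The 1 that fell was Bik, a BH3-only gene named here after its values were seen, with -1.90 ± 0.51 in WT (SE, edgeR adjusted p 0.00395) and -1.47 ± 0.46 in R442Q (SE, edgeR adjusted p 0.00913). Of 5 inhibitor of apoptosis genes 2 rose and 2 fell in each genotype, and Birc3 fell in both (log2 -4.39 ± 0.24 in WT and -4.34 ± 0.22 in R442Q, SE). Of 12 known regulators of the members 3 rose and 4 fell in WT, and 3 rose and 5 fell in R442Q. Ywhaz, a 14-3-3 protein that binds phosphorylated BAD, fell in both (log2 -2.07 ± 0.19 in WT and -1.69 ± 0.17 in R442Q, SE). Bag1, a co-chaperone that binds BCL2, rose by 3.85 ± 0.50 in WT and 4.97 ± 0.46 in R442Q, and Dynll2, a dynein light chain, by 2.09 ± 0.28 and 2.36 ± 0.25 (SE). Of 5 death receptor genes 1 rose and 2 fell in each genotype, with medians of -0.73 in WT and -1.11 in R442Q. The 1 that rose, Tnfrsf10b, did not pass the filter in zygotes alone. It entered through the late 2-cell embryos, where it is high, so its rise supports nothing.

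Over the 20 zygotes and late 2-cell embryos, the genes whose log2 CPM followed a member most closely were ranked among 9685 genes. Bcl2l10 was most like Med30, Rfpl4 and Hmces, with Pearson r from 0.989 to 0.990. Bcl2l1 was most like Mark2, Ppp1r12a and Mcm2 (0.976 to 0.979), and Bcl2l11 most like Rps27a, Gm12625 and Gm28645 (0.968 to 0.975). These r values are a description, since the embryos share 2 stages and the difference between stages makes up most of the spread.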

How the data were processed

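RNA of 34 single embryos was sequenced by SMART-seq2 with Nextera libraries, per the labels' protocols. Per the submitters' processing notes, RSEM and mm10 were used; the aligner, annotation and strand use are not given in the sources used here. The deposited expected counts of zygotes and late 2-cell embryos were estimated by the authors per gene symbol and not normalised; the FPKM of all stages were deposited as normalised by the authors to length and library size. Counts were rounded and tested in R 4.3.3 with edgeR 4.0.16 (filterByExpr with a minimum count of 10, TMM scaling, quasi-likelihood test) per stage, and in 1 model of 4 groups for stage changes and the interaction. Blastocysts were tested with limma 3.58.1 on log2(FPKM + 1), keeping genes that reached FPKM 1 in 7 or more embryos; such a difference understates the change of low genes. All p-values were adjusted over all genes tested, with a threshold of 0.05. DESeq2 1.42.0 and other settings were alternatives. The scripts were tested on simulated data. Groups came from the sample titles. The members and lists were chosen with earlier results of these data known. The 10 members are always named. Of the lists, at most the 5 called genes with the smallest p per comparison are named, besides Bax, Bik and genes named for the limit of the filter. The 3 most alike genes are named for the 3 members with the highest mean. Positions came from GENCODE M21 (GRCm38), which held 98.6% of the symbols of the early stages and 92.1% of those of blastocysts. PCR copies were not marked, so counting limits cover counting error only. The values of 1 gene of the lists are not reported here.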

Additional observations from a re-analysis of the deposited data

Results flagged for a closer look

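The difference between the genotypes changed between stages for Bcl2l1, by the interaction test (log2 -2.23, edgeR adjusted p 6.1e-05), with R442Q higher than WT in zygotes and lower at the late 2-cell stage. Among 43 groups of members and embryos examined with Dixon's test, 4 had an embryo far from the others, and chance gives about 1 in 20. Within the 5 WT zygotes, Bcl2l10 was lowest in replicate 1, at 4703 FPKM, where the other 4 lay between 5476 and 5738. Bcl2l10 stood at 2.88 FPKM in blastocyst R442Q replicate 6 and at 0 in the other 6 of that group. Within the 7 R442Q blastocysts, Bcl2l1 was highest in replicate 5, at 38.57 FPKM. Within the 7 WT blastocysts, Bcl2l2 was highest in replicate 7, at 3.91 FPKM.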

How the results depend on the processing

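The stage changes of the members kept their counts of calls, 8 in WT and 7 in R442Q, and the interaction its 1, under all alternatives run. In zygotes the count of 1 became 0 with both stages fitted together and 0 with limma on FPKM rescaled to equal sums, and ranged from 0 to 2 when 1 embryo was left out. At the late 2-cell stage the count of 1 became 2 with DESeq2, 2 with both stages fitted together, 3 with limma on FPKM, 3 with limma on rescaled FPKM and 0 with length and GC trend removed, and ranged from 0 to 1 when 1 embryo was left out. The rescaling and the trend removal were chosen after seeing the data, and the cause of these changes was not tested. The replicate numbers did not pair the embryos: correlations of same-numbered embryos ranged from -0.168 to 0.206 between the genotypes. With the replicate block the late 2-cell count was 0 (Bcl2l1 log2 -1.67, adjusted p 0.0618), and Bcl2, never called, changed sign in the R442Q stage change (-1.2) and in the interaction (-0.33). Other changes of sign were in values never called. With length and GC trend removed, Mcl1 had 0.41 and Bid 0.04 at the late 2-cell stage. Leaving out 1 embryo gave ranges of -0.04 to 0.32 for Mcl1 and -0.68 to 0.02 for Bid in zygotes, -0.24 to 0.12 for Bid and -0.64 to 0.01 for Mcl1 at the late 2-cell stage, -0.03 to 0.67 for the interaction of Bid, and -0.25 to 0.07 for Bok and -0.13 to 0.55 for Bcl2l11 in blastocysts. Genes called over the whole table ranged, over settings other than leaving out embryos, from 270 to 2187 in zygotes, from 58 to 2507 at the late 2-cell stage, from 1085 to 2527 for the interaction and from 0 to 5 in blastocysts. Without 1 embryo they ranged from 1125 to 1718, from 142 (without WT replicate 2) to 891 (without R442Q replicate 3), from 1089 to 2311 and from 0 to 30 (without WT replicate 7), so the shares of all genes set beside the members move with single embryos. The share of called genes that were higher in R442Q was 47.7% in zygotes and ran from 23.6% (limma on rescaled FPKM) to 73% (both stages fitted together). It was 29.3% at the late 2-cell stage and ran from 13.8% (replicate block) to 44.6% (length and GC trend removed), and for the interaction it was 30.3% and ran from 25.2% (replicate block) to 45.6% (DESeq2). Members with few counts (Bcl2, Bak1, Bcl2l2) are limited by depth.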
